A study of Mus musculus with 4 samples.

Results

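The mitochondrial solute carriers of the SLC25 family were examined in the murine embryonic stem (ES) cell line CGR8, using 4 Affymetrix arrays. Members were all genes whose symbol in the platform annotation is Slc25a followed by a number, taken from probe sets that carry exactly 1 symbol. This gave 44 genes, from 93 probe sets, of 18193 genes measured in all. Each gene was represented by its brightest probe set by mean log2 signal, all 4 arrays counted. Of the 44 genes, 42 lay above the filter on dim signals and were tested. The filter was a mean log2 signal of 4.51, a signal of 22.9. Slc25a18, at 4.66, lay just above it. Slc25a54 and Slc25a41, at 3.81 and 3.79, lay below it and are marked as dim.

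SLC25 carriers are membrane proteins of the mitochondrial inner membrane, built from repeats of a common module. Most of them exchange one solute for another and so link the metabolism of the matrix to that of the cytosol. They move ADP and ATP, phosphate, citrate and other carboxylates, acylcarnitines, amino acids, cofactors and iron. A few members sit elsewhere, Slc25a17 in peroxisomes and Slc25a46 in the mitochondrial outer membrane. ES cells depend on LIF (leukemia inhibitory factor), a cytokine that acts through Stat3 to keep them undifferentiated, and their metabolism is known to change as they leave that state.

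All arrays held RNA of the same unmodified line, grown on 0.1% gelatin in medium with 15% serum replacement. In 2 samples the medium contained LIF at 1000 U/ml, and in 2 samples LIF was left out. RNA was taken after 2 days, and 100 ng of total RNA was labelled for each array. Within each group the labels number the samples 1 and 2 and do not state separate cultures, so p-values cover only array-to-array spread, which may be technical. CGR8 is a single line, so the values describe that line.

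The pluripotency genes Pou5f1 and Sox2 read at least 7212 on every array, with log2 changes of 0.02 and -0.52 without LIF. The LIF-dependent markers Klf4 and Esrrb read lower without LIF (log2 changes of -3.84 and -2.27). Of 9 ES cell markers, 7 were lower without LIF with no overlap of arrays, beside 15.2% of all tested genes. The median log2 change of the 9 was -1.38. The arrays numbered 1 and 2 differed in both groups. The 18S ribosomal RNA signal was 451 to 462 on the arrays numbered 1 and 2990.4 to 5150.4 on those numbered 2. The summed signal of 7 primitive endoderm markers went from 934 on array 1 to 3192 on array 2 with LIF and from 1299 to 6803 without it. That of 4 tested neuroectoderm markers went the other way, from 2035 to 1351 with LIF and from 2774 to 1437 without it. The sum of 6 fibroblast markers was also lower on array 2, going from 614 to 320.1 with LIF and from 856 to 449.6 without it, and the sums for mesoderm markers (5 genes) were 284 to 312. Neurog2 was the 1 dim marker, and no marker on these lists read 0. In RNA of a whole culture, fewer cells of a type and less RNA per cell cannot be told apart. Changes are therefore also given within each array number, and the part of these differences in any carrier's change was not tested.

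The carriers with the smallest p were the acylcarnitine carrier Slc25a20, at a lower level without LIF, and the ATP-Mg carrier Slc25a24, at a higher one. In all, 3 of the 42 tested members (7.14%) differed by 2-fold or more in their mean log2 signal, beside 11.5% of all tested genes. By limma, 0 of the 42 reached an adjusted p of 0.05, beside 0.145% of the 14445 tested genes (0.0485% higher and 0.0969% lower). At an unadjusted p of 0.05 or less there were 5 members, 2 higher and 3 lower without LIF, which is 11.9% of 42 beside 10.9% of all genes. The median log2 change (without minus with LIF) was -0.01 over the members and 0.09 over all tested genes, and it lay between -0.15 and 0.04 across 15 other settings of the processing. The median size of change, whatever its sign, was 0.25 for the members beside 0.29 in general. The groups lay apart, with no overlap of arrays, for 17 members. Slc25a2, Slc25a10, Slc25a24, Slc25a29, Slc25a42, Slc25a44, Slc25a47 and Slc25a51 were higher without LIF (8 genes), and Slc25a4, Slc25a12, Slc25a13, Slc25a15, Slc25a16, Slc25a20, Slc25a34, Slc25a36 and Slc25a39 lower (9 genes). Over all tested genes 42.5% did not overlap, 27.3% higher and 15.2% lower. A change of at least 2-fold without overlap was found for 1 member upward, Slc25a24, and 2 downward, Slc25a20 and Slc25a34, beside 7.36% and 2.12% of all genes. With the array number as a further term in the fit (a block) 4 members passed, Slc25a20 and Slc25a13 lower and Slc25a24 and Slc25a31 higher without LIF, beside 6.75% of all genes (4.13% higher and 2.62% lower). The change had the same sign in both array numbers for 27 members, and for 65% of all tested genes.

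**Figure D1:**
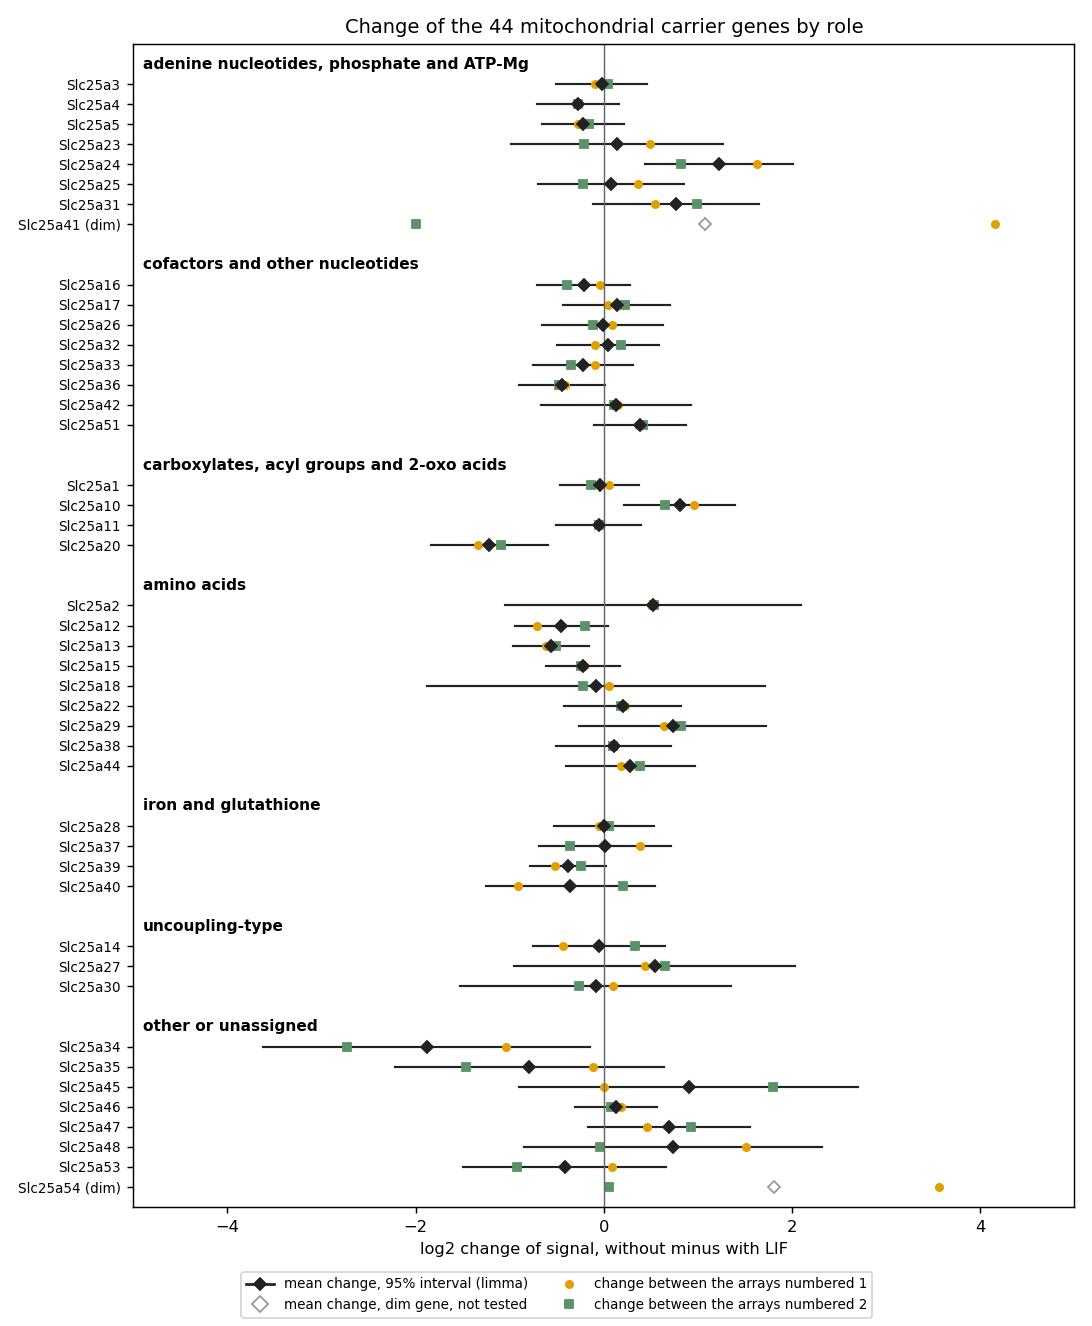
Log2 change of signal (horizontal axis, without minus with LIF) of the 44 carrier genes, grouped by what they carry. Diamonds are mean changes with 95% intervals from limma, circles and squares the changes between the arrays numbered 1 and 2, and open diamonds the 2 dim genes. The intervals of 5 of the 42 tested carriers do not include 0 (1573 of all 14445 tested genes). These are Slc25a20 at -1.22, Slc25a24 at 1.23, Slc25a10 at 0.80, Slc25a13 at -0.56 and Slc25a34 at -1.88. The widest intervals belong to weak signals such as Slc25a34, Slc25a45 and Slc25a18.

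For 25 of the 42 members the 95% interval of the change lay within 2-fold in either direction (59.5%, beside 45.9% of all tested genes). For these genes a change larger than 2-fold was outside the interval. The signs were even, 21 members above 0 and 21 below, and differed with the brightness of the probe sets. Of the 21 members with a mean log2 signal of 9 or more, a value chosen after the data had been seen, 15 were below 0, and of the 21 weaker ones 6 were. Among all tested genes the shares below 0 were 52.9% at 9 or more and 31.3% under it. With quantile normalization 16 and 10 members of these sets were below 0, and with a common median of the tested genes on each array 19 and 10. The shares of all tested genes at 9 or more that were below 0 were then 50.9% and 71.6%. The common median lowered the median of all tested genes from 0.09 to -0.05. Intervals within 2-fold in the main fit also differed with brightness. At 9 or more they were found for 81.0% of members and 82.3% of all tested genes. Under 9 the shares were 38.1% and 18.3%.

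**Figure D2:**
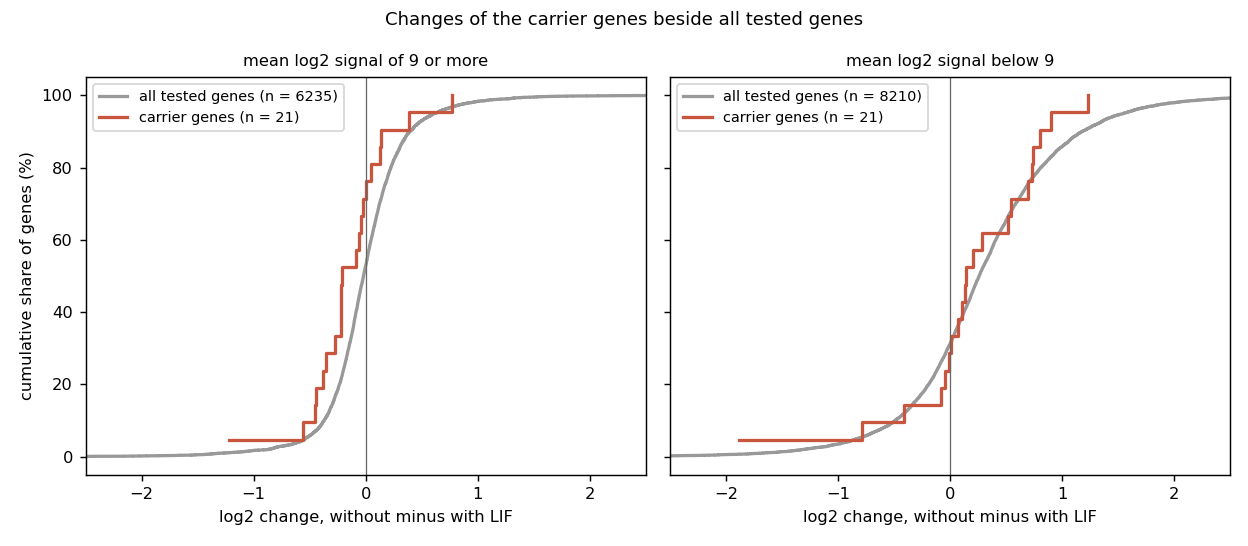
Cumulative share of genes (vertical axis, percent) against log2 change (horizontal axis, shown from -2.5 to 2.5), for 21 carriers and 6235 genes of strong signal on the left and 21 carriers and 8210 genes of weaker signal on the right. The carriers' line crosses 0 at 71.4% on the left and 28.6% on the right, and the line of all genes at 52.9% and 31.3%.

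The carrier with the smallest p was Slc25a20, the carnitine-acylcarnitine carrier that brings fatty acyl groups into the matrix for oxidation. Its signal was 4156 and 5506 with LIF against 1639.5 and 2575 without it, so both arrays without LIF lay below both with LIF. The means were 4831 ± 955 with LIF against 2107 ± 661 without it (SD, n = 2), a 2.33-fold lower level on the log2 scale (log2 change -1.22, SE 0.26, limma adjusted p = 0.14, 95% interval -1.84 to -0.60). The change was -1.34 between the arrays numbered 1 and -1.10 between those numbered 2. It did not pass over all genes, and it passed with the array number as a block (adjusted p = 4.3e-04). With 1 array omitted it passed only without array 2 of the LIF-free group (log2 change -1.54, adjusted p = 0.0030). Omitting array 1 of that group gave -0.89 (0.083), and omitting array 1 or 2 of the LIF group gave -1.42 (0.17) or -1.02 (0.54). A further probe set of Slc25a20 read 2190.2 and 2619.9 with LIF against 622 and 1249 without it, a log2 change of -1.44. Both probe sets therefore placed the groups apart in the same direction.

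The proximal promoters of the 4 carriers that passed with the block are shown because these are the members that reached the threshold under any fit to all 4 arrays, and they were chosen after their values had been seen. They are from RefSeq (GRCm38.p6), 250 bases up to the transcription start, 5′ to 3′ on the gene's strand. Capitals mark matches, on either strand, to CCGGAAGT (ETS factors such as Gabpa), the Nrf1 consensus of 10 bases, CACGTG (the E-box), TTCNNNGAA (STAT factors), TCAAGGTCA (estrogen-related receptors) and GGGCGG (the GC box).
Slc25a20 promoter, chr9:108661886-108662135, plus strand: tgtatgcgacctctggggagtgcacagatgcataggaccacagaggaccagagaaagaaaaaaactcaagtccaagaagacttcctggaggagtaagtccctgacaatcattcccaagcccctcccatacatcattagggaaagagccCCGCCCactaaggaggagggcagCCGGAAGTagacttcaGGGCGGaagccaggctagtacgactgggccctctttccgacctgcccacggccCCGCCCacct
Slc25a24 promoter, chr3:109122899-109123148, plus strand: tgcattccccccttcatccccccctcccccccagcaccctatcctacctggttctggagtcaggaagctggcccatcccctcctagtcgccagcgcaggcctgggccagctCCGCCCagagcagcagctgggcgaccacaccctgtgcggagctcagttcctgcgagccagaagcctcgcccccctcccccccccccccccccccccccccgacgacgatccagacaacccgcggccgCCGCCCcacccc
Slc25a13 promoter, chr6:6217174-6217423, minus strand: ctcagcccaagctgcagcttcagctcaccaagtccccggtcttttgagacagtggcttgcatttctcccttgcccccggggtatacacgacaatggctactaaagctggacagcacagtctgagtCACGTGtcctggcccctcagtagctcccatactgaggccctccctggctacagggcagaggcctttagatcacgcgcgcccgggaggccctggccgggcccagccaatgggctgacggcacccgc
Slc25a31 promoter, chr3:40708621-40708870, plus strand: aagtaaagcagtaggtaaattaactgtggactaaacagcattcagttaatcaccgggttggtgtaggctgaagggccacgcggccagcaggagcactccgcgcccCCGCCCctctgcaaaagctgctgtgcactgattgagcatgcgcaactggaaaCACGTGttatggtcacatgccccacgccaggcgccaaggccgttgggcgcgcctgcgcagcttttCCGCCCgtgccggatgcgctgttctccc
The Slc25a20 window held CCGGAAGT starting 79 bases before the start and GGGCGG in 3 places. The Slc25a24 window held GGGCGG in 2 places, the Slc25a13 window CACGTG starting 125 bases before the start, and the Slc25a31 window CACGTG at 93 bases and GGGCGG in 2 places. Matches to different motifs did not overlap in these windows. Promoters were found for 34 of the 44 members, 43 windows in all. Of these 74.4% held GGGCGG and 18.6% CACGTG, beside 32.7% and 6.02% of all 32851 promoter windows of that length. TTCNNNGAA was in 4.65% of member windows and 7.02% of all, and CCGGAAGT in 2.33% and 2.88%. The Nrf1 consensus and TCAAGGTCA were in 0 of the 43 windows and in 0.78% and 0.39% of all. The median GC content was 58.0% for member windows and 52.4% for all. These are letter matches and were not tested.

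Among the adenine nucleotide and phosphate carriers, 8 genes of which 7 were tested, the smallest p belonged to Slc25a24, a calcium-regulated carrier that exchanges ATP-Mg for phosphate. Its signal was 272 and 257 with LIF against 842 and 453 without it, with means of 264 ± 10.7 with LIF against 648 ± 275 without it (SD, n = 2). Both arrays without LIF were higher, and array 1 was the highest of the 4. The level was 2.34-fold higher without LIF on the log2 scale and did not pass (log2 change 1.23, SE 0.33, limma adjusted p = 0.24, 95% interval 0.44 to 2.01). The change was 1.63 between the arrays numbered 1 and 0.82 between those numbered 2. It passed with the block (adjusted p = 0.012). With array 2 of the LIF-free group omitted it also passed (log2 change 1.67, adjusted p = 0.010), but with array 1 of that group omitted the change was 0.78 (0.37), and with either LIF array omitted it did not pass (0.42 and 0.65). The neuroectoderm marker Sox1 had a like order over the arrays, 432 and 239 with LIF against 1422 and 446 without it. So did Map2, 71.6 and 65.6 with LIF against 192 and 83.4 without it. Pax6 had overlapping groups, 307 and 213 with LIF against 701 and 276 without it. Tubb3 went the other way, 1224 and 833 with LIF against 459 and 632 without it. The part of these markers in the Slc25a24 signal was not tested. The other, weaker probe set of Slc25a24 read 38.8 and 35.8 with LIF against 164 and 117 without it, a log2 change of 1.89. The related ATP-Mg carriers Slc25a23 and Slc25a25 had log2 changes of 0.14 and 0.07 with overlapping groups, and Slc25a41 was dim, reading 3 and 30 with LIF against 53.6 and 7.5 without it.

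The ADP/ATP carriers, which export ATP from the matrix, were measured for 3 genes. Slc25a5, the form of dividing cells, read 21182 and 24312 with LIF against 17503 and 21789 without it (log2 change -0.22, SE 0.18, limma adjusted p = 0.73), and its groups overlapped. Slc25a4, the form of heart and muscle, read 13191 and 15827 with LIF against 10956 and 13058 without it (log2 change -0.27, SE 0.18, limma adjusted p = 0.64), with no overlap. Its change was -0.27 between the arrays numbered 1 and -0.28 between those numbered 2. Slc25a31, known from male germ cells, read 518 and 779 with LIF against 757 and 1541 without it, with means of 648 ± 184 with LIF against 1149 ± 554 without it (SD, n = 2). Its groups overlapped, since array 2 with LIF read above array 1 without LIF, but within each number the array without LIF was higher (0.55 between the arrays numbered 1 and 0.98 between those numbered 2). Slc25a31 did not pass over all genes (log2 change 0.77, SE 0.37, limma adjusted p = 0.52) and passed with the block (adjusted p = 0.028), but not with the block and quantile normalization (0.062). Without array 1 of the LIF-free group the log2 change was 1.28 (adjusted p = 0.045), and without its array 2 it was 0.25 (0.74). Without array 1 or 2 of the LIF group it was 0.47 (0.90) or 1.06 (0.71), so single arrays set its size. It was higher on the arrays numbered 2 in both groups, as the primitive endoderm markers were, and their part in its signal was not tested. Slc25a3, the phosphate carrier, read 18934 and 22876 with LIF against 17728 and 23654 without it (log2 change -0.02, SE 0.20, limma adjusted p = 0.98, 95% interval -0.51 to 0.46), with array 2 the higher one in each group.

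Of the carboxylate and acyl carriers, 4 genes in all, Slc25a20 was described above. Slc25a10, the dicarboxylate carrier that exchanges malate and succinate for phosphate, read 244 and 282 with LIF against 474 and 443 without it. Its groups did not overlap, and the level was 1.75-fold higher without LIF on the log2 scale (log2 change 0.80, SE 0.25, limma adjusted p = 0.30, 95% interval 0.21 to 1.39). A weaker probe set of the gene read 113 and 96.3 with LIF against 110.1 and 112 without it (log2 change 0.09) with overlapping groups. Slc25a1, which exports citrate for lipid synthesis, read 1718 and 1897 with LIF against 1781 and 1722 without it (log2 change -0.04, SE 0.18, limma adjusted p = 0.95, 95% interval -0.46 to 0.38). Slc25a11, the oxoglutarate carrier of the malate-aspartate shuttle, had a log2 change of -0.06 (95% interval -0.51 to 0.40), the same between the arrays of either number. For citrate and oxoglutarate carriers a change of 2-fold thus lay outside the interval.

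The amino acid carriers comprised 9 tested genes, 5 with changes above 0 and 4 below. Slc25a13 (citrin), which exports aspartate in exchange for glutamate, read 2549 and 2414 with LIF against 1659 and 1699.7 without it, with means of 2481 ± 95 with LIF against 1679 ± 28.6 without it (SD, n = 2). The groups did not overlap, and the level was 1.48-fold lower without LIF on the log2 scale (log2 change -0.56, SE 0.17, limma adjusted p = 0.29, 95% interval -0.97 to -0.16). The change was -0.62 between the arrays numbered 1 and -0.51 between those numbered 2, and it passed with the block (adjusted p = 0.035) but not with the block and quantile normalization (0.057). Slc25a12 (aralar), the other aspartate and glutamate carrier, read 1442 and 1179 with LIF against 884 and 1027 without it (log2 change -0.45, SE 0.21, limma adjusted p = 0.50). Its groups did not overlap either, and its 3 probe sets all had changes below 0. Slc25a15, the ornithine carrier of the urea cycle, read 3224 and 3452 with LIF against 2783 and 2927 without it (log2 change -0.23, SE 0.17, limma adjusted p = 0.68), and its weaker probe set had a log2 change of -0.72. Both of its probe sets had non-overlapping groups. Slc25a38, which supplies glycine for heme synthesis, read 359 and 451 with LIF against 387 and 482 without it (log2 change 0.10, SE 0.26, limma adjusted p = 0.92), with overlap. The glutamate carrier Slc25a22 and the branched-chain amino acid carrier Slc25a44 had log2 changes of 0.20 and 0.28. Slc25a29, a carrier of basic amino acids, had 0.73 for its brightest probe set and -0.47 to 0.53 for the others, of which the last is dim. Slc25a2 and Slc25a18 read 23.6 to 46.3 and 19.6 to 30.7, near the filter.

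**Figure D3:**
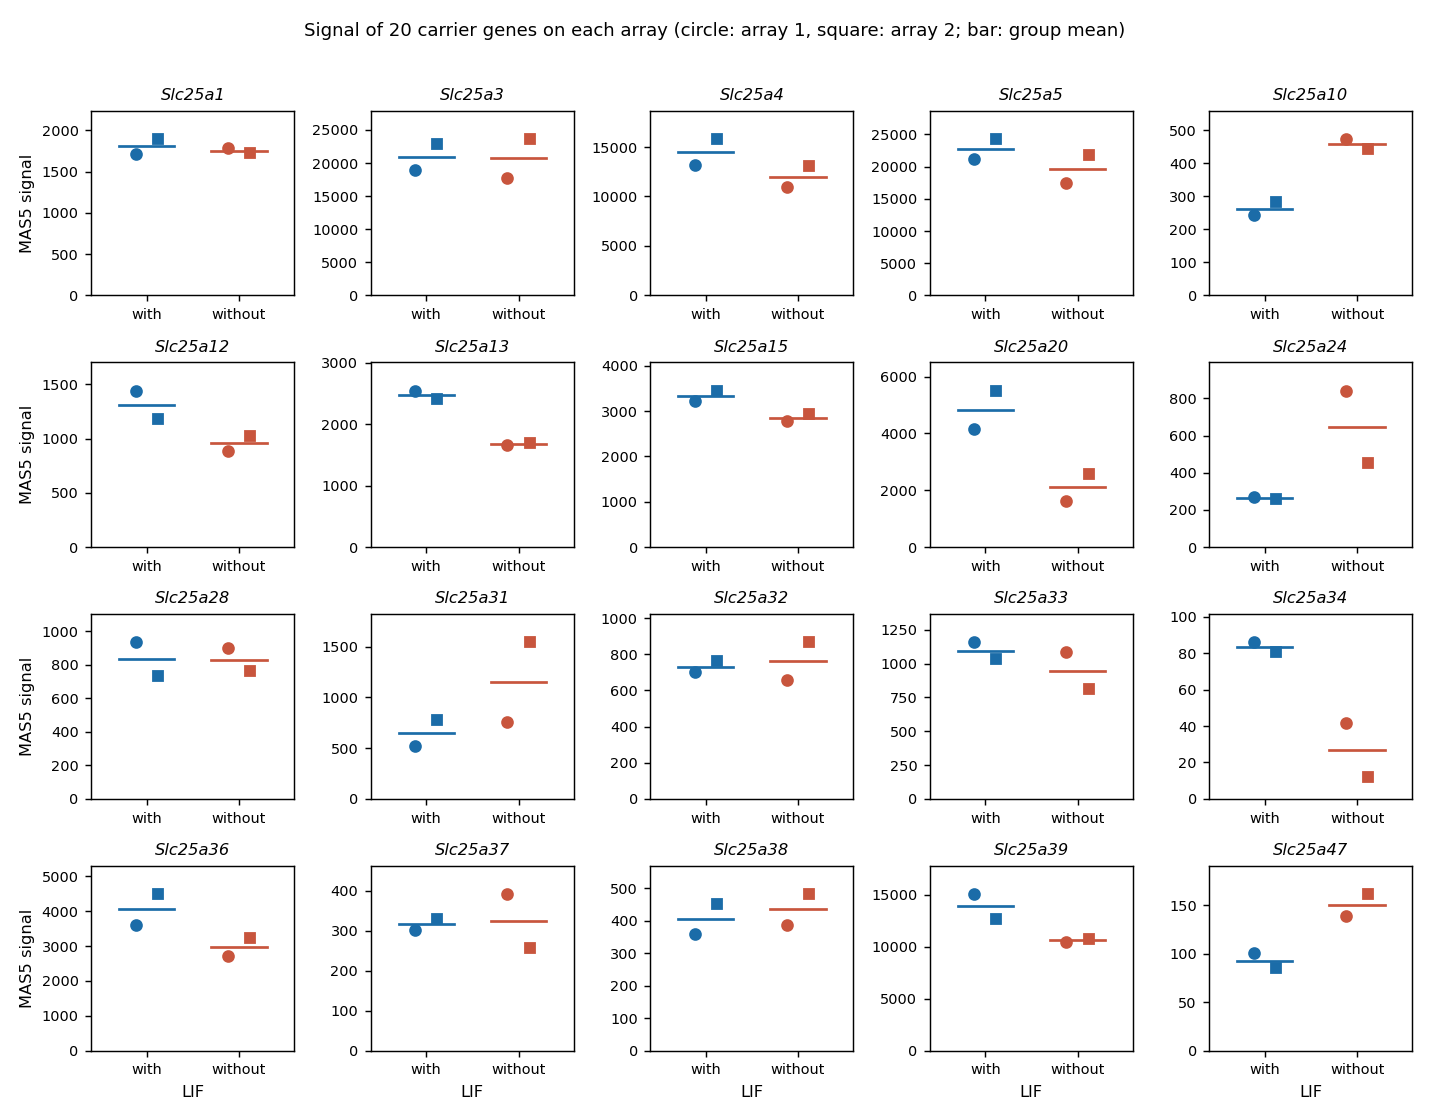
MAS5 signal (vertical axis, linear and starting at 0) of 20 carrier genes on the 2 arrays with LIF and the 2 without LIF. Circles are arrays numbered 1, squares those numbered 2, and bars group means. Slc25a13, Slc25a20 and Slc25a34 lie lower and Slc25a10, Slc25a24 and Slc25a47 higher without LIF on both arrays, while Slc25a1, Slc25a28 and Slc25a32 overlap.

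Carriers of cofactors and of other nucleotides were 8 tested genes with log2 changes from -0.44 to 0.39. Slc25a36, a pyrimidine nucleotide carrier, read 3612 and 4488 with LIF against 2715 and 3228 without it (log2 change -0.44, SE 0.19, limma adjusted p = 0.48), and its 3 probe sets had log2 changes of -0.44, -0.53 and -0.57. The groups did not overlap in any of them. Slc25a33, the related pyrimidine nucleotide carrier, read 1156 and 1031 with LIF against 1084 and 811 without it (log2 change -0.22, SE 0.22, limma adjusted p = 0.78), with overlap. Slc25a51, which brings NAD into mitochondria, read 838 and 956 with LIF against 1074 and 1273 without it (log2 change 0.39, SE 0.21, limma adjusted p = 0.56). It was the highest change of this set, without overlap. A second probe set of Slc25a51 had a log2 change of 0.35, also without overlap. The weakest one, with signals of 35.6 to 95, read the opposite way (-0.40) with overlap. Slc25a32, the folate and FAD carrier, read 699.8 and 764 with LIF against 655 and 865 without it (log2 change 0.04, SE 0.23, limma adjusted p = 0.97, 95% interval -0.50 to 0.58). The remaining members were Slc25a26 (S-adenosylmethionine), Slc25a42 (coenzyme A), Slc25a16 and the peroxisomal Slc25a17, with log2 changes of -0.01, 0.13, -0.22 and 0.13.

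The iron and glutathione carriers were 4 genes, and 1 of them had groups that did not overlap. Slc25a39, which imports glutathione, read 15055 and 12687 with LIF against 10469 and 10762 without it (log2 change -0.38, SE 0.17, limma adjusted p = 0.48). Its 4 probe sets above the filter had log2 changes of -0.38, -0.43, -0.58 and -0.36, all below 0. Slc25a40, its relative, read 1322 and 1448 with LIF against 704 and 1662 without it, with a log2 change of -0.35 that was -0.91 between the arrays numbered 1 and 0.20 between those numbered 2. The iron importers, the mitoferrins, were close to 0. Slc25a37 (mitoferrin 1) read 301 and 330.4 with LIF against 392 and 258 without it (log2 change 0.01, SE 0.30, limma adjusted p = 0.99, 95% interval -0.69 to 0.72), and Slc25a28 (mitoferrin 2) read 934 and 734 with LIF against 900.1 and 763 without it (log2 change 0.00, SE 0.23, 95% interval -0.53 to 0.53).

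Of the 3 uncoupling-type carriers, 2 differed more between array numbers than between groups. Slc25a30 read 988 and 397 with LIF against 1054 and 330.5 without it (log2 change -0.09, SE 0.61, limma adjusted p = 0.98), so the arrays numbered 2 were lower by 1.32 and 1.67 on the log2 scale with and without LIF. Its 4 probe sets above the filter were lower on array 2 in both groups, for example 489 and 117 with LIF against 420.4 and 165 without it. Slc25a27 read 145 and 53 with LIF against 196 and 83.1 without it, lower on array 2 by 1.45 and 1.24. Slc25a14 read 329 and 264 with LIF against 243 and 334 without it, with overlap. A difference of at least 2-fold between array numbers in the same direction in both groups was found for these 2 of 42 members, Slc25a27 and Slc25a30 (4.76%), and for 3.61% of all tested genes. For 11 members (26.2%, beside 26.8% of all genes) the number difference was in the same direction in both groups and larger in each than the change between groups. The summed fibroblast and neuroectoderm markers were also lower on the arrays numbered 2. Single markers went the other way, Tubb3 (neuroectoderm) from 459 to 632 and Thy1 (fibroblast) from 89.9 to 98.1 without LIF. Postn (fibroblast) went from 25.4 to 45.9 with LIF. The part of these markers in the carrier signals was not tested.

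**Figure D4:**
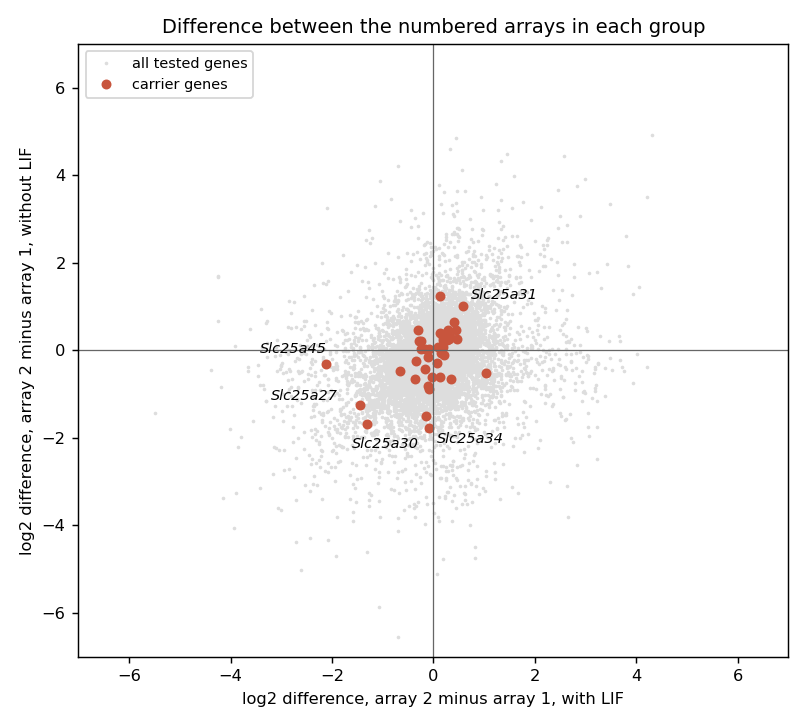
Log2 difference between array 2 and array 1 with LIF (horizontal axis) and without LIF (vertical axis) for the 42 tested carriers (red) and all 14445 tested genes (grey). Slc25a30 and Slc25a27 lie in the lower left, at -1.32 and -1.67 and at -1.45 and -1.24, and Slc25a31 in the upper right at 0.59 and 1.02.

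The remaining 8 members had other or unassigned substrates, and most were weak. Slc25a34 read 85.9 and 80.8 with LIF against 41.8 and 12.2 without it (log2 change -1.88, SE 0.73, limma adjusted p = 0.42, 95% interval -3.62 to -0.14), and array 2 without LIF was below the filter level, which leaves the change's magnitude poorly fixed. Slc25a47 read 101 and 84.8 with LIF against 139 and 161 without it (log2 change 0.69, SE 0.36, limma adjusted p = 0.55), higher without LIF on both arrays. Slc25a35, Slc25a45, Slc25a48 and Slc25a53 had log2 changes of -0.79, 0.90, 0.74 and -0.42 with overlapping groups and signals between 19.1 and 109.8. Slc25a46, a protein of the outer membrane involved in mitochondrial shape, read 1408 and 1613 with LIF against 1603 and 1697 without it (log2 change 0.13, 95% interval -0.31 to 0.57). The dim Slc25a54 read 3.6 and 15.5 with LIF against 42.6 and 16.1 without it.

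Probe sets of one gene could be compared for 23 members. Of the 21 with more than 1 probe set above the filter, all such sets changed in the same direction for 15. Among the 6 others were Slc25a53, with -0.42 and 0.64, and Slc25a27, with 0.54, -0.29 and -0.66. All 8 probe sets of Slc25a5 had changes below 0, and 2 of them were nearest to 0, with array 1 without LIF reading highest and array 2 lowest (5230.4 and 5779.6 with LIF against 8474 and 3561 without it, and 3655 and 4586 with LIF against 7196 and 2290.4 without it). The chosen probe sets of Slc25a5 and Slc25a39 carry the suffix x, which marks probes that can also match other transcripts, so related sequences may add to their signals.

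**Figure D5:**
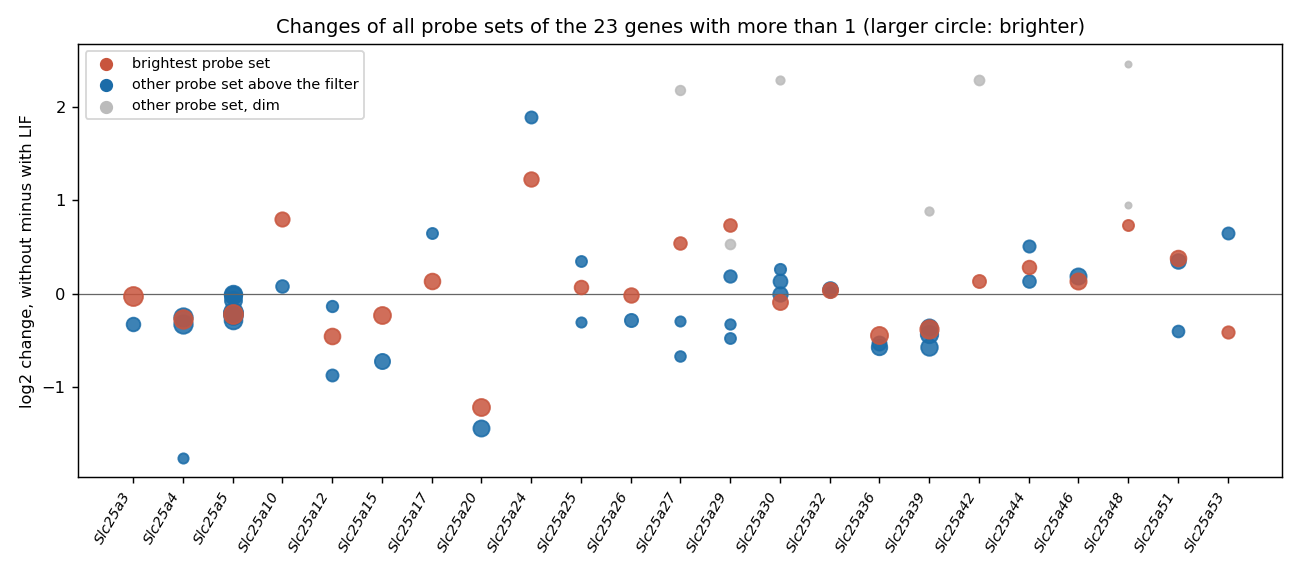
Log2 change (vertical axis, without minus with LIF) of every probe set of the 23 carriers with more than 1, by gene. Red is the brightest probe set, blue others above the filter, grey dim ones, and larger circles are brighter. Slc25a20 has both probe sets below -1 and Slc25a24 both above 1, while Slc25a27 and Slc25a29 have probe sets on both sides of 0.

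Enzymes that use or make the carried substrates were measured for 45 tested genes of a list of 55. Of these 0 passed over all genes, and 28 changes were above 0 and 17 below, with a median of 0.08. Of all tested genes 59.4% were above 0, with a median of 0.09. The enzymes had a median mean log2 signal of 10.83, and of all tested genes at 9 or more 47.1% were above 0. With the block 2 enzymes were higher and 4 lower without LIF, beside 4.13% and 2.62% of all tested genes. The smallest p belonged to Ak4, a mitochondrial adenylate kinase, which read 4339 and 5391 with LIF against 988 and 1917 without it (log2 change -1.81, SE 0.32, limma adjusted p = 0.089). Cpt1a, which loads fatty acids onto carnitine at the outer membrane before transport by Slc25a20, read 1398 and 1068 with LIF against 517 and 652 without it (log2 change -1.07, SE 0.24, limma adjusted p = 0.15). Its groups did not overlap, and both it and Slc25a20 were lower without LIF. Oat, the ornithine aminotransferase, read 1457 and 1989.5 with LIF against 2742 and 4096 without it (log2 change 0.98, SE 0.26, limma adjusted p = 0.22). Other carnitine palmitoyltransferases, Cpt2 and Cpt1c, named after their values were seen, read the opposite way. Cpt2, which returns the acyl group to coenzyme A in the matrix, read 450.4 and 538 with LIF against 703 and 792 without it (log2 change 0.60, SE 0.22, limma adjusted p = 0.39), and Cpt1c read 456 and 428 with LIF against 655 and 975 without it (log2 change 0.86, SE 0.26, limma adjusted p = 0.29).

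Other mitochondrial channels and carriers, chosen outside the Slc25a symbols, were 22 tested genes of 28 listed. The list also holds relatives of the family under other names, the uncoupling proteins Ucp1 (dim) and Ucp3 and the carrier homologs Mtch1 and Mtch2. There were 0 calls over all genes and a median of 0.09. With the block 2 were higher and 1 lower (all genes: 4.13% and 2.62%). Mpc1, a subunit of the pyruvate carrier, read 1989 and 2164 with LIF against 1056 and 1478 without it (log2 change -0.73, SE 0.22, limma adjusted p = 0.28). In the other direction, Micu2, a regulator of the calcium uniporter, read 299 and 287 with LIF against 602 and 545 without it (log2 change 0.97, SE 0.23, limma adjusted p = 0.19), and Mtch1, an atypical relative of the SLC25 carriers in the outer membrane, read 1046 and 1221 with LIF against 1609.7 and 1876 without it (log2 change 0.62, SE 0.20, limma adjusted p = 0.32). For each of these 3 genes the groups did not overlap.

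The protein import machinery, which brings carriers from the cytosol to the inner membrane, had a median of -0.04 over 33 tested genes of 36. There were 22 changes below 0 and 11 above. The median size of change was 0.11, beside 0.29 over all tested genes. These genes were bright, with a median mean log2 signal of 11.49, beside 8.49 over all tested genes. Changes under 0.25 in size were found for 63.7% of all tested genes at 9 or more and 31.8% under it. Of the 33 import genes 0 passed over all genes and 1 with the block (all genes: 6.75%), Timm21, a subunit of the TIM23 translocase. Timm21 read 533 and 614 with LIF against 1474 and 1410.3 without it (log2 change 1.33, SE 0.20, limma adjusted p = 0.069), the largest change of the list. Hspa9, the chaperone that drives import, and Timm10b, a small chaperone for carrier precursors, had log2 changes of -0.29 and 0.31 (adjusted p = 0.59 and 0.63). Among regulators of mitochondrial biogenesis 0 of 19 tested genes passed (20 listed), with 15 changes below 0, 4 above and a median of -0.24. Of all tested genes 40.6% were below 0, with a median of 0.09. The list was bright, with a median mean log2 signal of 10.12. Of all tested genes at a mean log2 signal of 9 or more, 52.9% were below 0, with a median of -0.02. Gabpa, an ETS factor for nuclear genes of mitochondrial proteins, read 3637 and 4686 with LIF against 2789 and 3015 without it (log2 change -0.51, SE 0.19, limma adjusted p = 0.40). It was the 1 member lower with the block (all genes: 2.62%). Polrmt and Polg, the mitochondrial RNA and DNA polymerases, had log2 changes of -0.47 and 0.44 (adjusted p = 0.48 and 0.49).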

How the data were processed

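Per the submitters' processing notes the deposited values are MAS5 signal intensities, on a linear scale, of 1-colour Affymetrix arrays. The version and settings were not given in the sources used here. The trimmed mean (without 2% at each end) was 500.003 to 500.004 on every array, so the arrays had been scaled to a common level, which bright probe sets dominate. Of 45101 probe sets, 64 were controls and 34945 had 1 symbol. All 44 carrier genes matched the RefSeq table by Entrez identifier. The 1 value at 0 was raised to the smallest positive one before taking log2. Genes above the 30th percentile were fitted by limma 3.58.1 under R 4.3.3 (eBayes with trend, a term for LIF alone, 2 residual degrees of freedom), with Benjamini-Hochberg adjustment over all 14445 tested genes at 0.05, and the fit was tested on simulated data. The array number as a block leaves fewer residual degrees of freedom than that. Its p-values therefore rest more on the variance moderated over all genes. An exact permutation test of 2 against 2 arrays cannot go below p = 0.33. Fold values are 2 to the power of the log2 change, and SE is moderated. Precision is limited by the 2 arrays a group, by weak signals and by the difference between array numbers. Members, gene lists and tests were chosen with earlier results of these data known. Described in full were members past the test with or without the block, the 10 with the smallest p, the 3 with the brightest probe sets, and 15 genes fixed by name. Of each other list the 3 genes with the smallest p are named. Alternatives were other filters (none, 50th percentile), a pseudocount (14.3), quantile normalization, a common median, other eBayes settings, other probe set choices, the array number as a block, each array left out, and an adjusted p of 0.1. Python 3.11.15 and matplotlib 3.10.9 drew the figures.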

Additional observations from a re-analysis of the deposited data

How the results depend on the processing

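The count of carriers past the test was 0 under every setting without the array number and with all 4 arrays, including an adjusted p of 0.1. With the replicate number as a block it was 4 (2 higher and 2 lower), and with the block and quantile normalization it was 2, Slc25a20 at -1.18 (adjusted p = 0.0020) and Slc25a24 at 1.16 (0.034). The numbers mark no stated culture or day. Over the tested genes, deviations from the group mean correlated at 0.29 between same-numbered arrays. With each array left out the count was 0 to 2, and a lone array is then assumed to vary like the other group. The count of all genes past the test, 21, was 975 with the block (723 with quantile normalization too), 41 with the filter at the 50th percentile, 40 with a pseudocount, 10 with quantile normalization, 0 without the trend, 52 with robust estimation, 12 with the mean of the probe sets, 140 at an adjusted p of 0.1, and 7 to 496 with each array left out. The number of carriers whose groups lay apart was 25 to 34 with each array left out, but a lone array overlaps the other group less often. The same share over all tested genes was not counted, so no result about the carriers is drawn from this range. The carriers' median was -0.15 with a common median and -0.02 to 0.04 with each array left out. Of 20 carriers described in full, 14 kept their sign in all settings. These 20 were chosen in part for a small p in the same data, which favors a kept sign. The same share over the other carriers or all genes was not counted, so no conclusion is drawn from it. With quantile normalization, with or without the block, Slc25a3 changed sign (0.053), as did Slc25a28 (-0.034), Slc25a32 (-0.0092) and Slc25a37 (-0.076). With a common median Slc25a28 (-0.14), Slc25a32 (-0.10), Slc25a37 (-0.13) and Slc25a38 (-0.035) changed sign. With each array left out Slc25a1 ranged from -0.12 to 0.028, Slc25a3 from -0.23 to 0.18, Slc25a28 from -0.17 to 0.18, Slc25a32 from -0.16 to 0.24, Slc25a37 from -0.29 to 0.31 and Slc25a38 from -0.061 to 0.27. The causes of these shifts were not tested, and each of these 6 genes has an interval that includes 0. The weak carriers Slc25a18, Slc25a34 and Slc25a45 had the widest intervals.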
